A study of Mus musculus with 2 samples.

Results

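The serotonin receptor genes described here were 9 rows of a single-nucleus RNA sequencing (snRNA-seq) count matrix of 32285 genes, chosen by symbol: Htr1a, Htr1b, Htr1d, Htr1f, Htr2a, Htr2c, Htr4, Htr5a and Htr7. The nuclei carried the neuronal protein NeuN and came from hypothalamic tissue of wild-type male C57BL/6J mice aged 10 to 12 weeks. A single gene expression library was made from pooled mice, and 2 hashtag antibodies, named ARC and PVH in the list of features, separated nuclei by origin but not by mouse. ARC is the arcuate nucleus, the tissue that the sample labels give for the whole library. PVH is not spelled out there and is the usual abbreviation of the paraventricular hypothalamus. Because there was 1 library, no difference had a replicate check and no p-value is given. The intervals are 95% intervals that cover counting error alone, and say nothing of how mice differ.

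Serotonin reaches the hypothalamus in fibres of raphe neurons and acts there on receptors that couple to different G proteins. The products of Htr1a, Htr1b, Htr1d, Htr1f and Htr5a couple to Gi/o and lower cyclic AMP, those of Htr2a and Htr2c couple to Gq and phospholipase C, and those of Htr4 and Htr7 couple to Gs and raise cyclic AMP. In the ARC, AGRP neurons promote feeding and POMC neurons restrain it, and Htr1b on the first and Htr2c on the second are the receptors best known for the effects of serotonin on appetite.

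After the filters, 3767 nuclei had the ARC hashtag and 3074 had the PVH hashtag, and 3737 and 3074 of them were neuronal. The median depth was 4833 UMIs (unique molecular identifiers, each counting 1 captured transcript) in ARC neurons and 5039 in PVH neurons. The unit of levels is CPM, counts of a transcript per 1000000 UMIs summed over a group of nuclei. The nuclei were clustered with every Htr gene left out, which gave 15 neuron clusters on the ARC side and 18 on the PVH side, numbered by size. Cluster ARC1 was AGRP-like, with 609 nuclei, and its Corin level was 163 CPM against 18.5 CPM in other ARC neurons. Cluster ARC5 was POMC-like, with 281 nuclei, and its Prdm12 level was 31.6 CPM against 1.24 CPM. Transcripts of the neuropeptides themselves were also counted outside these clusters, with Agrp at 299 CPM in AGRP-like and 149 CPM in other ARC neurons, and Pomc at 802 CPM in POMC-like and 105 CPM in other ARC neurons. Some clusters carried genes of a region other than that of their hashtag, and whether the dissection or the hashtag call placed them there was not tested. Cluster ARC2, of 490 nuclei, had Sim1, a PVH gene, and the oligodendrocyte genes Sox10 and Mobp among its markers, and a VMH-like cluster, named for the ventromedial hypothalamus, was found on each side. A further 30 ARC nuclei were astrocyte-like and tanycyte-like, and served as a background for genes of neurons. Their median depth was 2557 UMIs, and 3 UMIs in the 30 together are 34.2 CPM, so levels below that cannot be judged against them. The 4 oligodendrocyte markers summed to 60.1 CPM in AGRP-like, 55.2 CPM in POMC-like, 108 CPM in other ARC and 96.0 CPM in PVH neurons, and the 5 astrocyte markers to between 5.06 and 6.69 CPM in these groups against 1343 CPM in the non-neuronal nuclei. The part of such RNA in the differences between receptors was not tested.

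The genes differ in size, which may bear on how their levels can be compared. On the mouse build GRCm38, Htr1f spans chr16:64924729-65105854 on the minus strand (181 kb, of which 2.58 kb is exonic) and Htr2c spans chrX:146962513-147197277 on the plus strand (235 kb, 9.33 kb exonic). Htr1b is short, at chr9:81628291-81633828 on the minus strand, and is overlapped on the other strand by D430036J16Rik. Htr2c holds 8 small RNA genes on its own strand, among them Mir448 and Mir1264. Where within a gene the reads lay is not recorded in the counts. Per kb of exon, Htr1f had the highest level of the 9 receptors in ARC neurons, at 22.4 CPM per kb, followed by Htr2c at 13.2, Htr4 at 10.1 and Htr7 at 8.96 CPM per kb. In PVH neurons the order per kb of exon was Htr2c at 34.8, Htr1f at 26.6, Htr7 at 16.1 and Htr4 at 9.64 CPM per kb. Per kb of the whole gene, the short Htr1b came first on both sides, at 1.24 CPM per kb in ARC and 1.66 CPM per kb in PVH neurons, and Htr2c followed at 0.524 and 1.38 CPM per kb. Each UMI counts 1 captured transcript, and whether these counts rise with length was not tested, so the orders per kb are not orders of transcript number. By CPM alone Htr2c was the highest of the 9 on both sides, at 123 CPM in ARC and 324 CPM in PVH neurons.

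The upstream sequences of 4 receptors whose levels differed between classes of neurons are shown: Htr1f and Htr1b, which were higher in AGRP-like neurons, Htr2c, which was lower there and higher on the PVH side, and Htr7, which was low in both AGRP-like and POMC-like neurons. They come from windows of the 250 bases before the start of the gene in RefSeq on GRCm38.p6, read 5′ to 3′ along the gene, with CG dinucleotides in capitals. The windows lie at chr16:65105785-65106034 (Htr1f, minus strand), chr9:81633833-81634082 (Htr1b, minus strand), chrX:146962263-146962512 (Htr2c, plus strand) and chr19:36057361-36057610 (Htr7, minus strand). In GENCODE, which gave the gene spans above, Htr1f and Htr7 start further upstream, so that 70 bases of the Htr1f window and 147 of the Htr7 window lie inside the gene. For these 2 genes only the bases outside both annotations are printed, at chr16:65105855-65106034 and chr19:36057508-36057610.
Htr1f: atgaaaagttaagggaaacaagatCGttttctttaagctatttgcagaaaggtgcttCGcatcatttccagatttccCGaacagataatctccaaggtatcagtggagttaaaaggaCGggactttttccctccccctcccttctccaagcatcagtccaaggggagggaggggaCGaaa
Htr1b: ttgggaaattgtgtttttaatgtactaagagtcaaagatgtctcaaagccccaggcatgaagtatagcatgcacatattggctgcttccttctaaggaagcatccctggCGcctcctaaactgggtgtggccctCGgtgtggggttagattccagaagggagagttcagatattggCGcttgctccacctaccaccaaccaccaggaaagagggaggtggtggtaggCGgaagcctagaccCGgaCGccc
Htr2c: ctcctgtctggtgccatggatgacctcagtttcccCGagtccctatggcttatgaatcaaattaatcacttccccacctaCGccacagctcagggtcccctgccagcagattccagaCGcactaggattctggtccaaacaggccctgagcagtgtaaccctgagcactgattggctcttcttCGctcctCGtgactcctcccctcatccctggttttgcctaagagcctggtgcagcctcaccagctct
Htr7: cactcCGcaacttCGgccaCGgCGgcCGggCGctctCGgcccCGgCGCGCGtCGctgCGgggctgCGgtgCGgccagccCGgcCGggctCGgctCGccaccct

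The CG dinucleotides numbered 7 in the whole Htr1f window, 6 in that of Htr1b and 5 in that of Htr2c, around the median of 6 over 32851 such windows of mouse genes. The whole Htr7 window held 41, of which 19 are in the stretch printed, with 82.0% G and C, and 98.9% of all windows held fewer. The matched windows, which were those of 8 of the 9 receptors, were searched on both strands for TTCNNNGAA (the palindrome that STAT factors bind), TGACGTCA (the cyclic AMP response element), CACGTG (the E-box), TATAAA and TGTTTAC (the forkhead motif). None of these letters were found in any of the matched windows. The shares of all windows that held these motifs were 7.02%, 1.55%, 6.02%, 12.4% and 3.17%, in that order.

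AGRP-like neurons, compared with other ARC neurons, were high in Htr1f and Htr1b and low in Htr2c, Htr4, Htr7 and Htr1d. Against other ARC neurons, 3 of the 9 receptors were 2-fold or more higher and 4 were 2-fold or more lower. Of 18149 genes compared, 4.46% were higher and 11.5% were lower by this measure. The median log2 ratio of the 9 receptors was −0.84, and over all genes it was 0.0027.

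Of the Gi/o-coupled receptors, Htr1f was at 171 CPM (157 to 186) in AGRP-like neurons, from 542 UMIs, and at 35.6 CPM in other ARC neurons, which made it 4.82-fold higher (4.28 to 5.43). AGRP-like neurons gave 48.4% of the Htr1f UMIs of ARC neurons (45.4 to 51.4) and 16.3% of their UMIs in all. A Htr1f UMI was seen in 41.2% of AGRP-like nuclei, in 14.5% of ARC neurons that were neither AGRP-like nor POMC-like, at a median depth of 4777 UMIs, and in 13.3% of the non-neuronal nuclei (4 of 30, 3.76 to 30.7). With each nucleus thinned to 1000 UMIs these shares were 14.1%, 3.41% and 10.0% (2.11 to 26.5), so at equal depth the share in non-neuronal nuclei had an interval that held that of AGRP-like nuclei. As a level, Htr1f was at 56.9 CPM (18.5 to 133) in non-neuronal nuclei, below AGRP-like neurons beyond counting error and not below the remaining ARC neurons.

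Htr1b, the autoreceptor and presynaptic receptor that quiets AGRP neurons, was at 16.4 CPM (12.3 to 21.6) in AGRP-like neurons and at 4.99 CPM in other ARC neurons, 3.30-fold higher (2.28 to 4.73), from 52 and 81 UMIs. It was seen in 7.55% of AGRP-like nuclei. In the shallower non-neuronal nuclei it had 1 UMI, a level of 11.4 CPM (0.288 to 63.4) whose interval held that of AGRP-like neurons. Htr1a, the somatodendritic inhibitory receptor, was 2.80-fold higher by ratio, but on 6 and 11 UMIs, and its interval of 0.851 to 8.27 included no difference. Htr1d had 0 UMIs in AGRP-like neurons and 79 in other ARC neurons. Against a floor of 3 UMIs for AGRP-like neurons as a group it was at least 5.13-fold lower, and the upper limit of the ratio by its 95% interval was 0.246. Htr5a, on 8 UMIs, was at 2.53 and 1.85 CPM, which could not be told apart at this depth.

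Of the Gq- and Gs-coupled receptors, Htr2c, Htr4 and Htr7 were lower. Htr2c was at 22.1 CPM (17.3 to 28.0) in AGRP-like neurons against 143 CPM in other ARC neurons, a ratio of 0.155 (0.121 to 0.197). It was seen in 8.87% of AGRP-like nuclei, in 29.6% of the ARC neurons outside both classes and in 1 of 30 non-neuronal nuclei (3.33%, 0.0844 to 17.2), which had a median of 2557 UMIs against 4898. The level in those nuclei, 11.4 CPM from 1 UMI (0.288 to 63.4), has an interval that holds the AGRP-like level. On 1 UMI in nuclei of another cell type, this comparison cannot decide whether Htr2c in AGRP-like neurons was above background. Htr4 was at 16.8 CPM against 55.7 CPM, a ratio of 0.301 (0.224 to 0.397). Htr7 was at 5.69 CPM against 35.3 CPM, a ratio of 0.161 (0.0949 to 0.257). Htr2a, at 6.32 against 11.3 CPM, was lower by less than 2-fold (ratio 0.558, 0.333 to 0.888).

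These ratios depend on how an AGRP neuron is defined. When the class was set by 2 or more UMIs of Agrp and fewer of Pomc in place of clustering, which took 698 nuclei, 0 receptors were 2-fold higher or lower, and the log2 ratio of Htr1f went from 2.27 to 0.85 and that of Htr2c from −2.69 to −0.36. Agrp was also counted outside the AGRP-like cluster, at 149 against 299 CPM, so this class can take in other neurons. How many it took in was not tested. Under the other settings tried, the log2 ratio of Htr2c lay between −2.76 and −1.69. The −2.69 of the main clustering is thus near the low end of that range. Each other clustering at a hashtag quantile of 0.8 gave a larger AGRP-like class than the 609 nuclei used here, from 619 to 779 nuclei.

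**Figure D1:**
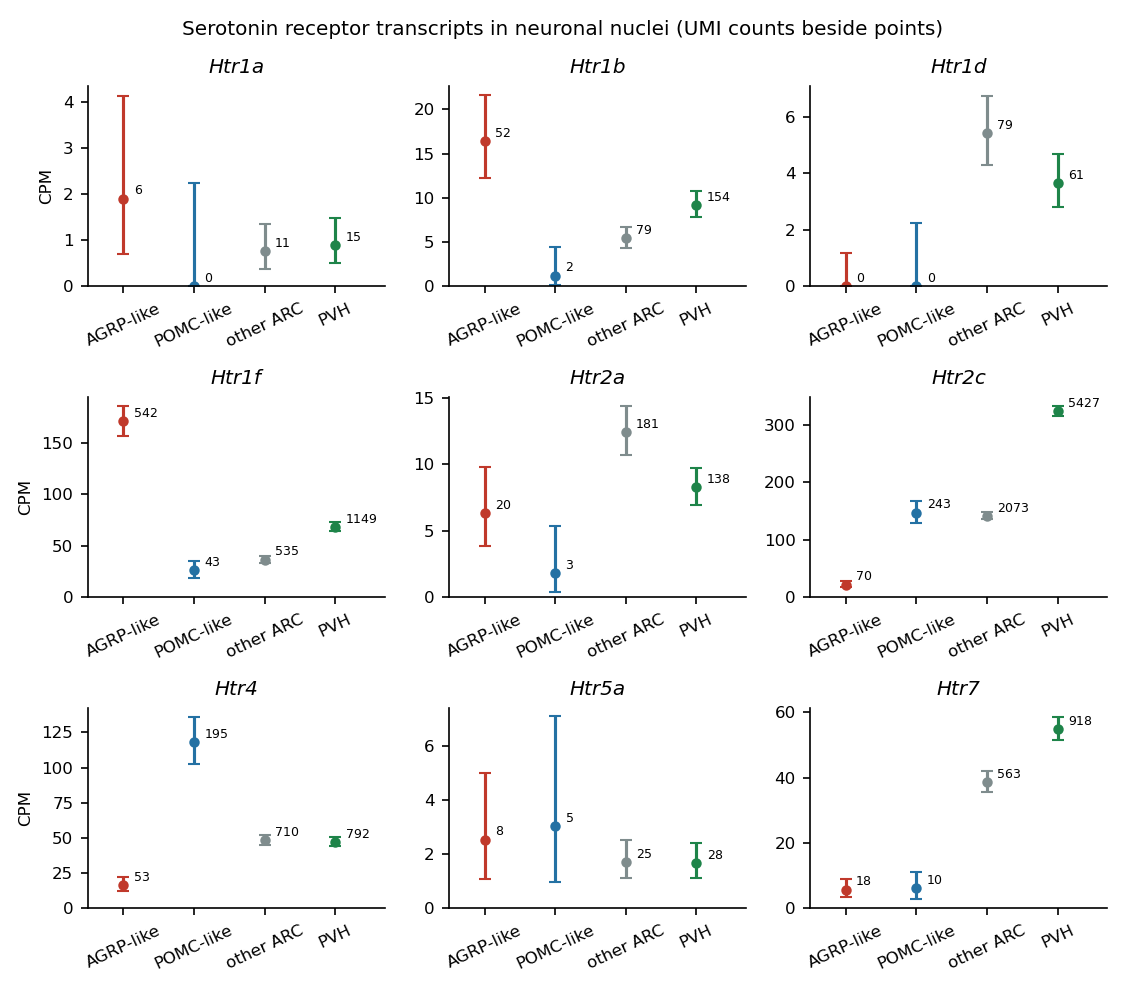
Level of each serotonin receptor, in CPM on an axis from 0, in AGRP-like, POMC-like, other ARC and PVH neurons, with 95% counting intervals as bars and the UMI count beside each point. Htr1f stood highest in AGRP-like neurons at 171 CPM, Htr4 in POMC-like neurons at 118 CPM and Htr2c in PVH neurons at 324 CPM.

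POMC-like neurons were high in Htr4 and carried Htr2c at about the level of their neighbours, while Htr1b, Htr1d, Htr1f, Htr2a and Htr7 were lower. Of the 9 receptors, 1 was 2-fold or more higher than in other ARC neurons and 6 were 2-fold or more lower, where 4.84% of 18149 genes were higher and 11.8% were lower. The median log2 ratio of the receptors was −2.43, or −1.25 with Htr1d set at its bound of 3 UMIs and Htr1a left out, and −0.037 over all genes. The POMC-like nuclei were deeper, with a median of 5609 UMIs.

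Htr4, a Gs-coupled receptor, was at 118 CPM (102 to 136) in POMC-like neurons and 43.0 CPM in other ARC neurons, 2.75-fold higher (2.34 to 3.23), from 195 UMIs. With the classes set by UMIs of Agrp and Pomc, its log2 ratio went from 1.46 to 0.88, under 2-fold. It was seen in 46.3% of POMC-like nuclei, 18.1% of the ARC neurons outside both classes and 1 of 30 non-neuronal nuclei (3.33%, 0.0844 to 17.2), whose depth was lower (median 2557 against 5609 UMIs). After thinning to equal depth the shares were 9.96% in POMC-like and 0 of 30 in non-neuronal nuclei (0 to 11.6), an interval that holds the POMC-like share. The background level, 11.4 CPM from 1 UMI (0.288 to 63.4), was below that of POMC-like neurons, but its interval holds the level of other ARC neurons. POMC-like neurons gave 20.4% of the Htr4 UMIs of ARC neurons (17.8 to 23.0) and 8.49% of all their UMIs. Htr2c was at 147 CPM (130 to 167) against 121 CPM, a ratio of 1.22 (1.07 to 1.40), and was seen in 39.1% of POMC-like nuclei. The ARC neurons outside both classes had Htr2c at 142 CPM (136 to 148), within the interval of POMC-like neurons. Without the ARC clusters with Sim1 or oligodendrocyte genes, the log2 ratio of Htr2c in POMC-like neurons rose from 0.29 to 0.61, still under 2-fold.

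The second Gs-coupled receptor, Htr7, was at 6.07 CPM against 32.7 CPM, a ratio of 0.186 (0.0885 to 0.344). Htr2a had 3 UMIs and a ratio of 0.161 (0.0329 to 0.477), and Htr1b had 2 UMIs and a ratio of 0.165 (0.0197 to 0.606). Htr1f was at 26.1 CPM against 60.7 CPM, a ratio of 0.430 (0.310 to 0.584), and 26.1 CPM was within the interval of the non-neuronal nuclei (18.5 to 133). Htr1d had 0 UMIs, and was at least 2.44-fold lower than in other ARC neurons against the floor of 3 UMIs, with an upper limit of 0.515 by the interval of the ratio, which is short of 2-fold. Htr1a also had 0 UMIs, and counts among the 6, but its level elsewhere was so low (0.957 CPM) that no difference was detectable. Htr5a was at 3.03 and 1.86 CPM on 5 and 33 UMIs, with a ratio of 1.63 (0.498 to 4.21).

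Set directly against AGRP-like neurons, POMC-like neurons were 2-fold or more higher in 2 of the 7 receptors with at least 10 UMIs and lower in 3. By the same measure 6.25% of 14722 genes were higher and 7.06% were lower. Htr4 was 7.06-fold higher (5.19 to 9.76) and Htr2c 6.66-fold higher (5.09 to 8.82). Htr1f had a ratio of 0.152 (0.109 to 0.208), Htr1b one of 0.0738 (0.00871 to 0.280) and Htr2a one of 0.288 (0.0548 to 0.971). Htr7 was low in both, with a ratio of 1.07 (0.440 to 2.44). This comparison and the preceding ones share their nuclei and are not independent. When both classes were set by UMIs of Agrp and Pomc, Htr4 remained above 2-fold, with a log2 ratio of 1.09 where clustering gave 2.82, and Htr2c did not, with 0.39 where clustering gave 2.74. Across all settings tried, the Htr2c ratio left its counting interval in 10 of 18, with its direction kept in each. The highest log2 ratio of Htr2c over these settings was 2.76, so the 2.74 of the main clustering lies near the top.

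**Figure D2:**
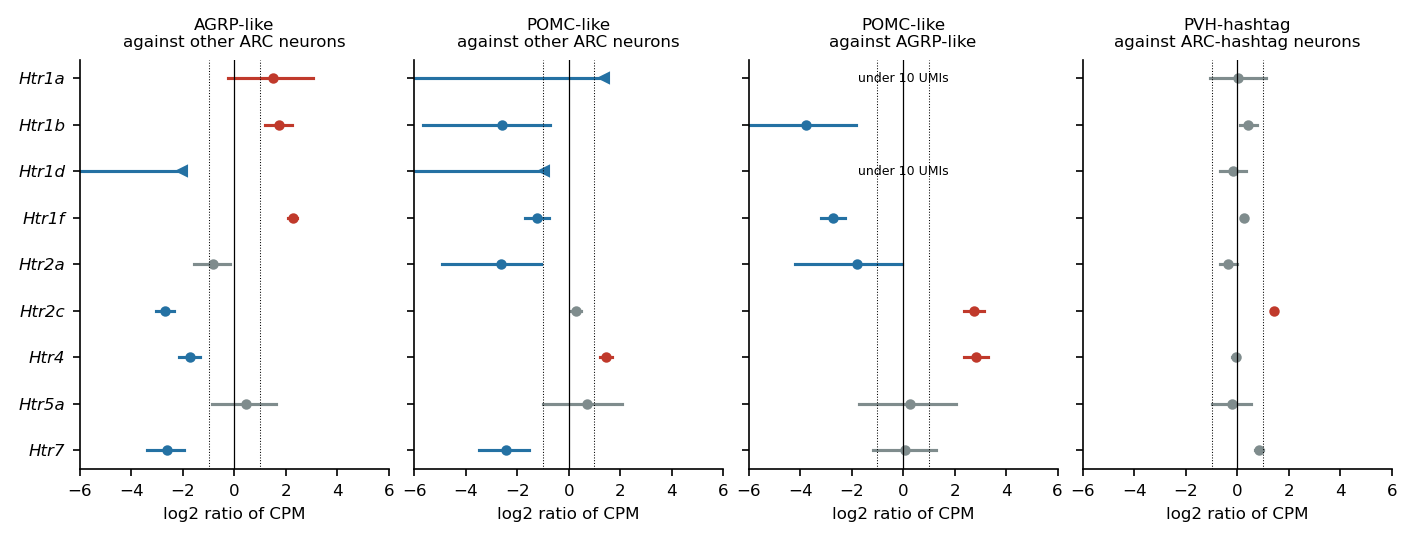
Log2 ratio of CPM for each receptor in 4 comparisons, with 95% counting intervals as lines cut at the axis limits, dotted lines at a 2-fold ratio, and points in red (2-fold or more higher), blue (2-fold or more lower) or grey (neither). Arrowheads mark the upper limit where the first group had 0 UMIs, and Htr1b, Htr1f, Htr2c and Htr4 lay on opposite sides of 0 in AGRP-like and POMC-like neurons.

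Within a class, the shares of nuclei with one receptor were alike in nuclei with and without another, as far as the counts could tell. Among AGRP-like nuclei, 8.37% of those with a Htr1f UMI had a Htr1b UMI (5.25 to 12.5), and 6.98% of those without (4.57 to 10.1). Htr2c was seen in 10.8% (7.21 to 15.3) and 7.54% (5.03 to 10.8) of the same nuclei. The level of Htr1f was 180 CPM (159 to 203) in AGRP-like nuclei with a UMI of Lepr, the leptin receptor, and 163 CPM (144 to 184) in those without. In POMC-like nuclei Htr2c was seen in 38.5% of those with Htr4 (30.1 to 47.4) and in 39.7% of those without (31.9 to 48.0). These intervals overlap, and at this depth a nucleus with no UMI may still hold the transcript. At least 1 of the 9 receptors was seen in 57.0% of AGRP-like, 72.2% of POMC-like and 73.3% of PVH nuclei, and in 19.4%, 23.1% and 34.7% after thinning to 1000 UMIs. A nucleus had UMIs of up to 4 receptors in the AGRP-like and POMC-like clusters and of up to 6 in PVH neurons.

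Between the hashtags, Htr2c differed by more than 2-fold and the other receptors by less. Neurons with the PVH hashtag were 2-fold or more higher than those with the ARC hashtag in 1 of the 9 receptors, and 0 were lower by that much. Of 19748 genes, 4.76% were higher and 3.55% were lower. Htr2c was at 324 CPM (316 to 333) in PVH neurons and 123 CPM (118 to 128) in ARC neurons, 2.64-fold higher (2.51 to 2.77), and was seen in 46.9% and 26.9% of nuclei, or 21.4% and 9.82% after thinning. Htr7 was 1.80-fold higher (1.62 to 2.00), at 54.9 against 30.5 CPM. Htr1b was 1.34-fold higher (1.06 to 1.71) and Htr1f 1.19-fold higher (1.09 to 1.29). Htr2a was lower, with a ratio of 0.784 (0.627 to 0.978). Htr4, at 47.3 and 49.4 CPM, had a ratio of 0.959 (0.872 to 1.05), and Htr1a, Htr1d and Htr5a had intervals that included 1. Without the AGRP-like, POMC-like and VMH-like clusters on the ARC side, the log2 ratio of Htr1f rose from 0.25 to 0.91 and that of Htr1b from 0.43 to 1.40. This took clusters from the ARC side alone, the AGRP-like one with Htr1f at 171 CPM among them. The VMH-like cluster of the PVH side, with Htr1b at 39.9 CPM, was kept.

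Sim1 marks neurons proper to the PVH, and among neurons with the PVH hashtag Htr2c was lower in the sum of the clusters named for it, though not in each of them. The 8 PVH-Sim1-like clusters had Htr2c at 176 CPM and the other PVH-hashtag neurons had it at 404 CPM, a ratio of 0.435 (0.406 to 0.466). PVH16, itself PVH-Sim1-like, was at 533 CPM (460 to 614). Single nuclei sorted by a Sim1 UMI gave 265 CPM with Sim1 (252 to 279) and 353 CPM without (342 to 364). Htr4 was at 15.9 CPM in PVH-Sim1-like clusters against 64.2 CPM, a ratio of 0.248 (0.198 to 0.308). PVH17, itself PVH-Sim1-like, was at 67.6 CPM for Htr4, and the other PVH-Sim1-like clusters were below 64.2 CPM. Htr1f was at 40.1 against 84.0 CPM and Htr7 at 33.7 against 66.2 CPM, while for Htr1d, at 3.77 and 3.58 CPM, the interval of the ratio, 0.594 to 1.82, included 1. For Htr7 the PVH-Sim1-like PVH17 and PVH7 were at 87.8 and 73.5 CPM, and the other PVH-Sim1-like clusters were below 66.2 CPM.

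By cluster, Htr2c ran from 22.1 to 659 CPM, and none of the 33 neuron clusters were at 0. It was highest in PVH10 at 659 CPM (597 to 726), an unnamed cluster with Reln and Nkx2-2os among its leading genes. PVH4 at 617 CPM, PVH8 at 579 CPM and the PVH-Sim1-like PVH16 at 533 CPM had intervals that overlapped that of PVH10. PVH8 also had the oligodendrocyte genes Sox10 and Mobp among its leading genes, and their part in its level was not tested. On the ARC side ARC11, an unnamed cluster led by Tbx19, was highest at 287 CPM (255 to 323), and ARC2, the cluster with Sim1 and oligodendrocyte genes, followed at 279 CPM (259 to 301). The AGRP-like cluster was the lowest of the 33 at 22.1 CPM, beside the dopaminergic-like ARC13 at 27.8 CPM (15.2 to 46.6), PVH14 at 32.6 CPM (19.3 to 51.5) and ARC15 at 34.9 CPM (16.8 to 64.3), from which it could not be told apart.

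Htr1f was highest in 3 clusters. PVH3, an unnamed GABAergic cluster led by Meis2 and Pax6, was at 208 CPM (185 to 232), AGRP-like ARC1 at 171 CPM and PVH10 at 155 CPM (126 to 189), and the intervals of both overlapped that of PVH3. PVH8 followed at 102 CPM (83.0 to 124), and the SST-like cluster ARC3 was the second on the ARC side at 60.3 CPM (50.5 to 71.5). ARC3 also had Agrp at 172 CPM and Npy at 123 CPM, against 299 and 295 CPM in ARC1. All ARC neurons outside ARC1, those of ARC3 included, were at 149 and 88.1 CPM. The SST-like name of ARC3 rests on Sst, Otp and Pthlh, the last on 3 UMIs. The median over the 33 clusters was 36.2 CPM, within the interval of the non-neuronal nuclei (56.9 CPM, 18.5 to 133). In the plot of Htr1f against Htr2c, AGRP-like neurons combined a high Htr1f with a low Htr2c, whereas PVH3 and PVH10 were high in Htr1f with Htr2c at 226 and 659 CPM.

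**Figure D3:**
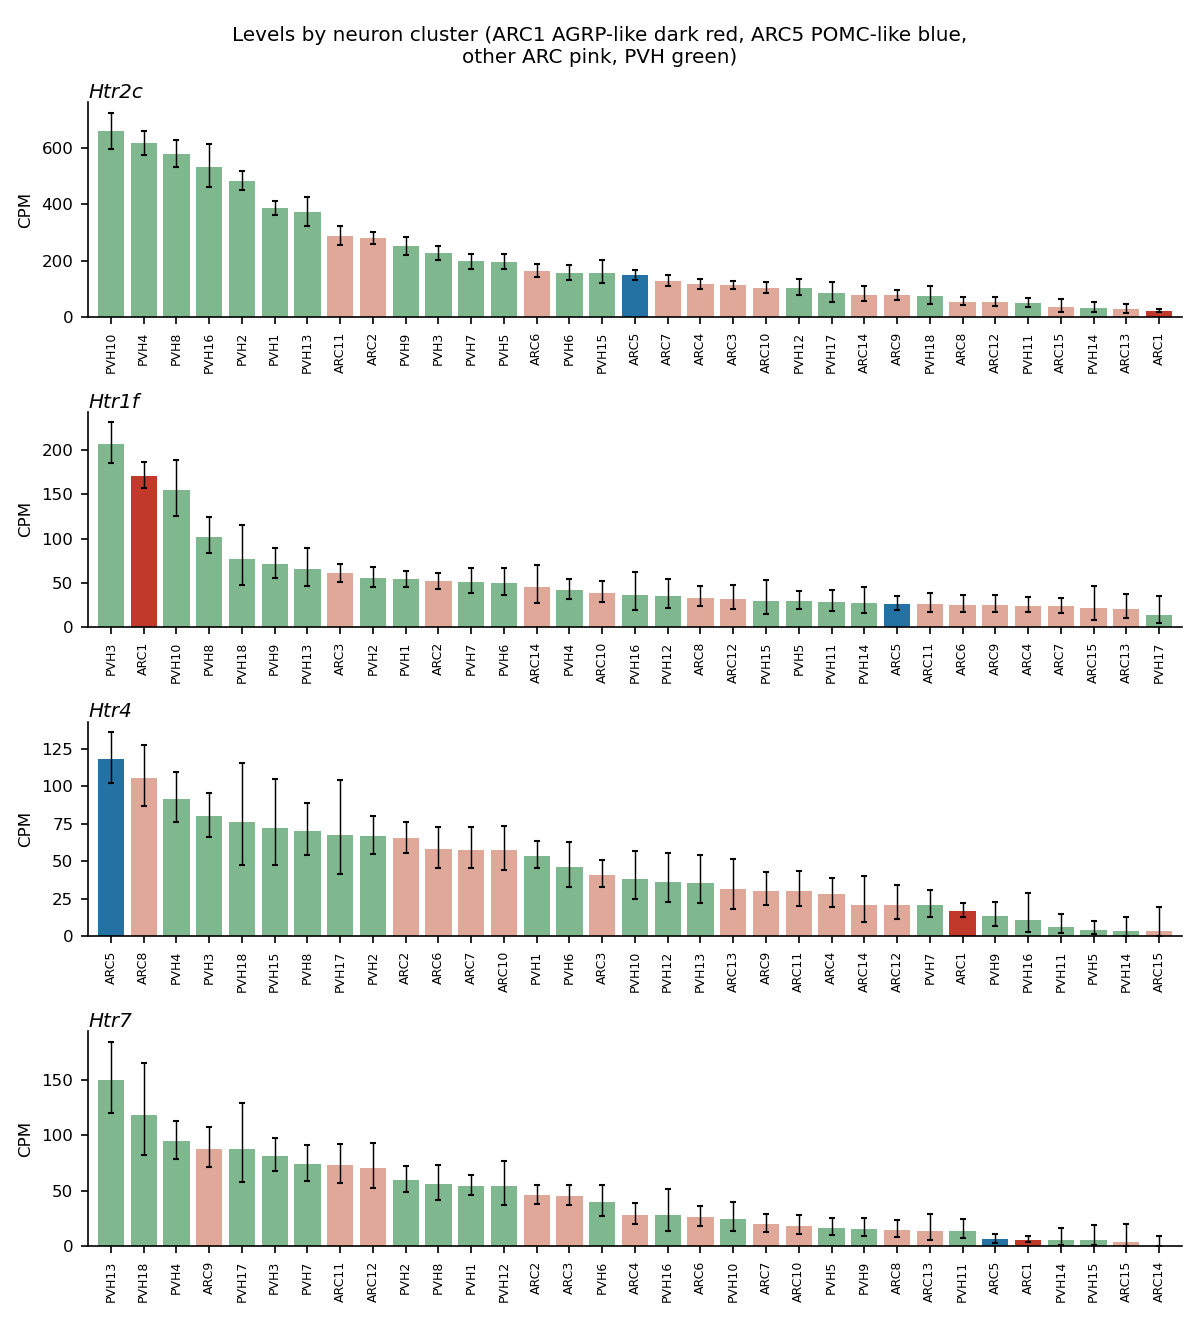
Levels of Htr2c, Htr1f, Htr4 and Htr7 in the 33 neuron clusters, in CPM on axes from 0, ordered from high to low within each receptor, with 95% counting intervals. AGRP-like ARC1 was second for Htr1f at 171 CPM and last for Htr2c at 22.1 CPM, and POMC-like ARC5 was first for Htr4 at 118 CPM.

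**Figure D4:**
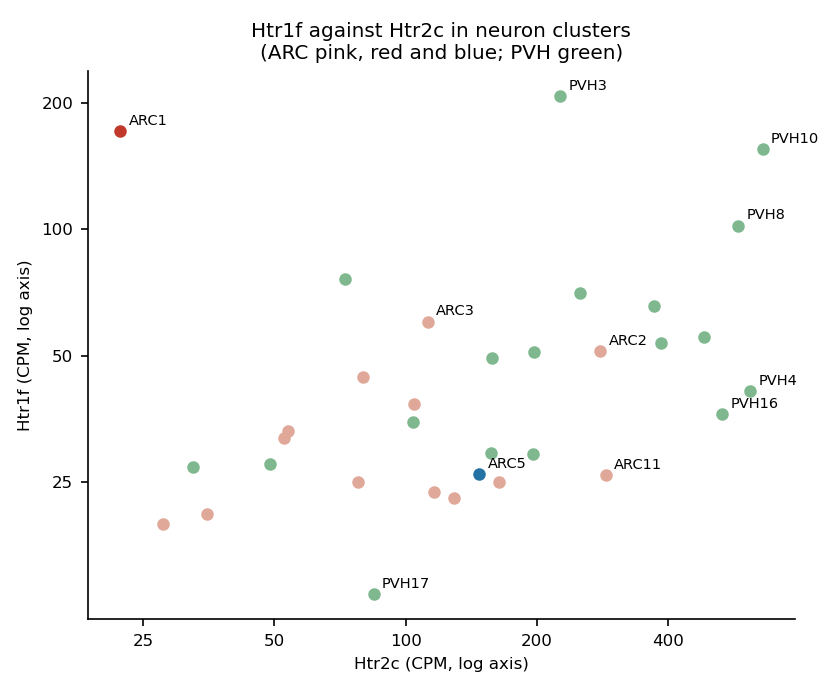
Htr1f against Htr2c, both in CPM on log axes, with 1 point for each of the 33 neuron clusters. AGRP-like ARC1 lies apart at 171 CPM of Htr1f and 22.1 CPM of Htr2c, while PVH10 is high in both.

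Of the Gs-coupled receptors, Htr4 was highest in POMC-like ARC5 at 118 CPM. Next came KNDy-like ARC8, the kisspeptin neurons, at 106 CPM (87.1 to 127), and PVH4 at 91.4 CPM (75.9 to 109). The intervals of 5 clusters, ARC8 and PVH4 among them, overlapped that of ARC5. Htr4 was lowest in 3 clusters with Sim1, namely ARC15 at 3.49 CPM, PVH14 at 3.62 CPM and PVH5 at 4.29 CPM, on 1, 2 and 5 UMIs. In sums over clusters of the ARC side, Htr4 was at 83.0 CPM in glutamatergic and 36.6 CPM in GABAergic clusters (ratio 2.27, 1.99 to 2.58). ARC5 and ARC8 are both glutamatergic, and the others, ARC7, ARC10 and ARC15, were at 57.8, 57.6 and 3.49 CPM. Among GABAergic ARC clusters, ARC2 and ARC6 were at 65.4 and 57.9 CPM and the rest at 41.1 CPM or less. On the PVH side the sum was lower in glutamatergic clusters, at 35.6 against 74.9 CPM (ratio 0.475, 0.413 to 0.548). Htr7 was highest in PVH13, an unnamed cluster with Lhx9 and Tcf7l2, at 149.8 CPM (120.3 to 184), and in PVH18 at 118 CPM (81.6 to 165). The GHRH-like cluster ARC9, whose first gene was Chat, was the highest on the ARC side for Htr7 at 87.8 CPM (71.1 to 107), with ARC11 at 72.6 CPM (56.6 to 91.8) and ARC12 at 70.4 CPM (52.4 to 92.6) not distinct from it. In the same sums Htr7 was lower in glutamatergic than in GABAergic clusters on both sides, with ratios of 0.359 (0.276 to 0.460) in the ARC and 0.624 (0.546 to 0.714) in the PVH. ARC2, counted as GABAergic, had the glutamatergic marker Slc17a6 and the GABAergic marker Slc32a1 both at 42.2 CPM. Its Htr7 level was 45.5 CPM, and how the ARC ratios depend on its class was not tested.

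The less abundant receptors had UMIs in most clusters, with 0 UMIs in 7 of the 33 for Htr1b, 11 for Htr1d and 3 for Htr2a. Htr1b was highest in both VMH-like clusters, at 39.9 CPM (22.3 to 65.8) in PVH15 and 29.3 CPM (20.03 to 41.3) in ARC10, and in PVH7 at 25.1 CPM (16.7 to 36.3). AGRP-like ARC1 followed PVH18 for Htr1b at 16.4 CPM, below PVH15 beyond counting error. Htr1d was highest in PVH16 at 39.0 CPM (21.3 to 65.5), in the dopaminergic-like ARC13 at 25.8 CPM (13.7 to 44.1) and in PVH13 at 20.2 CPM (10.4 to 35.3), on 14, 13 and 12 UMIs. Htr2a was highest in the VMH-like ARC10 at 36.6 CPM (26.1 to 49.8), then in ARC4 at 27.4 CPM (19.2 to 38.0) and PVH7 at 24.2 CPM (15.9 to 35.2). The VMH-like cluster of the PVH side had Htr2a at 10.6 CPM, a ratio of 0.291 to that of the ARC side (0.0756 to 0.804). Htr1a and Htr5a, with 32 and 66 UMIs over the neurons of both hashtags, had no cluster that stood apart from the others.

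**Figure D5:**
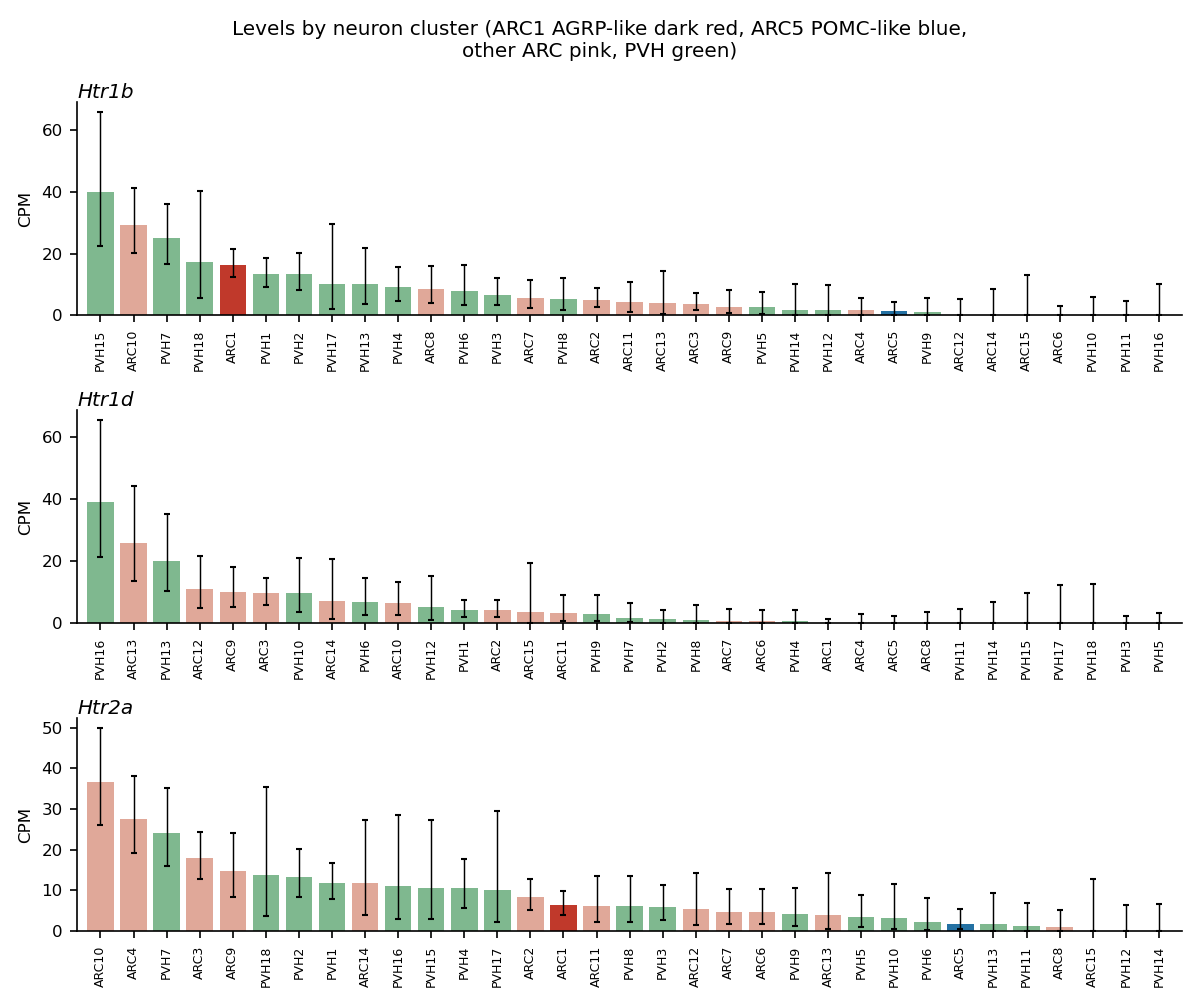
Levels of Htr1b, Htr1d and Htr2a in the 33 neuron clusters, in CPM on axes from 0, ordered from high to low within each receptor, with 95% counting intervals. The VMH-like clusters PVH15 and ARC10 led for Htr1b at 39.9 and 29.3 CPM, ARC10 led for Htr2a at 36.6 CPM, and the intervals are wide because the highest bars rest on 14 to 40 UMIs.

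The genes whose levels over the 33 clusters were most like those of a receptor were found by Pearson's r of log2(CPM + 1) among 12266 genes, as a description without a test. The clusters share 1 library and its depth. For Htr1b the first was Gm26713 (r = 0.85), a gene on the same chromosome 425 kb away, and the second was D430036J16Rik (r = 0.76), which overlaps Htr1b on the other strand. No source used here gives whether the counting used strand, so reads of Htr1b and D430036J16Rik may not be separable. For Htr1f they were Gm48957 (r = 0.71) and Lrp8os3 (r = 0.64), for Htr2c Slc6a7 (r = 0.75) and Itga5 (r = 0.73), for Htr2a Dzank1 (r = 0.71), for Htr4 Banf2 (r = 0.83) and Tenm2 (r = 0.79) and for Htr7 Pls1 (r = 0.75). Between receptors the highest were Htr1b with Htr4 (r = 0.49) and Htr2c with Htr7 (r = 0.45), and Htr1f with Htr2c had r = 0.34.

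Of the 5 other serotonin receptor genes, Htr3b, a subunit of the serotonin-gated channel, was nearly confined to cluster ARC6, where it was at 68.1 CPM (54.5 to 84.0) and gave 87 of the 108 UMIs of both hashtags. The next cluster, PVH16, had 2.79 CPM from 1 UMI. Htr3a, another subunit of the channel, had 21 UMIs in all neurons and 0.515 CPM in ARC neurons. Its 0 UMIs in ARC6 allow up to 2.35 CPM, above that level, so the depth there does not show whether it was lower. Htr2b ranged evenly from 16.0 to 55.9 CPM over the clusters, and lies within Psmd1 on the other strand. Htr5b and Htr6 had 15 and 48 UMIs. In AGRP-like neurons 0 of these 5 genes were 2-fold higher than in other ARC neurons and 2 were lower, Htr3b and Htr5b, and in POMC-like neurons 1 was higher, Htr3a on 2 UMIs, and the same 2 were lower with 0 UMIs each. The shares of all genes were 4.46% higher and 11.5% lower in AGRP-like and 4.84% and 11.8% in POMC-like neurons. The intervals of Htr5b (0 to 1.55 and 0 to 3.25) and of Htr3a (0.279 to 13.5) included 1, so of these Htr3b alone differed beyond counting error in the comparisons of AGRP-like and POMC-like neurons. Between PVH and ARC neurons 0 of the 5 were 2-fold higher and 2 were lower, where 4.76% of all genes were higher and 3.55% lower. Htr3b had a ratio of 0.118 (0.0550 to 0.227), and Htr5b one of 0.0828 (0.00196 to 0.544), from 1 UMI against 14, so both differed beyond counting error there.

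Of 8 genes that make, carry or clear serotonin, 6 had enough UMIs to compare AGRP-like with other ARC neurons, of which 1 was 2-fold or more higher and 2 were lower, beside 4.46% and 11.5% of all genes. The first was Slc6a4, on 4 UMIs and with an interval of 0.711 to 14.4 that included 1, and the others were Ddc and Slc18a2, which dopaminergic neurons also use. Tph2, the synthesis enzyme of neurons, had 17 UMIs in ARC and 8 in PVH neurons, Slc6a4, the serotonin transporter, had 10 and 4, and Fev, the transcription factor of serotonergic neurons, had 0 in both, where the floor of 3 UMIs is 0.155 CPM in ARC neurons and 0.179 CPM in PVH neurons and the upper limits of the 95% intervals are 0.190 and 0.220 CPM.

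Of 34 genes of receptor signalling and RNA editing, 2 were 2-fold or more higher and 7 were lower in AGRP-like than in other ARC neurons, with a median log2 ratio of −0.06, where 4.46% of all genes were higher and 11.5% lower. In POMC-like neurons the counts were also 2 and 7, with a median of −0.09, where 4.84% of all genes were higher and 11.8% lower. In AGRP-like neurons Trpc4 was 3.15-fold higher (2.82 to 3.53) and Trpc5, which encodes a channel that Htr2c receptors open, had a ratio of 0.204 (0.174 to 0.237). Plcb1, a phospholipase C that acts below Gq, had a ratio of 0.255 (0.222 to 0.291). Other genes that act below Gq were not past 2-fold, with ratios of 1.04 for Gnaq, 0.863 for Gna11, 1.00 for Plcb4, 1.21 for Plcb3 and 1.199 for Itpr1. In POMC-like neurons Trpc7 was 3.68-fold higher (3.17 to 4.25) and Kcnj3, a subunit of the potassium channel that Gi/o receptors open, was 2.33-fold higher (2.14 to 2.53). Adarb2, a relative of the enzymes that edit Htr2c transcripts, had ratios of 0.144 in AGRP-like and 0.180 in POMC-like neurons, and was 4.64-fold higher (4.44 to 4.85) in PVH than in ARC neurons. On the PVH side 2 of the 34 genes were higher, Adarb2 and Adcy8, and 0 were lower, where 4.76% and 3.55% of all genes were.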

How the data were processed

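The deposited matrix holds raw counts (UMIs) of genes and of 2 hashtags for each barcode of 1 pooled library, made by Cell Ranger (5.0 per the labels, 4.0.0 per the file headers) on mm10 per the labels. No source used here gives whether intronic reads were counted. Of 11409 barcodes, 10170 had over 800 and under 5000 genes, at most 12000 UMIs and at most 1% mitochondrial UMIs. Hashtags were called at a positive quantile of 0.8, and 944 doublets and 2385 nuclei without a call were left out. No other doublet caller was run. Nuclei of each hashtag were clustered apart in Seurat 5.3.0 (R 4.3.3) on 2000 variable genes without Htr genes, of which 5 per side would have been among them, with 30 components, 20 neighbours and Leiden at resolution 0.55 (leidenbase 0.1.32). A cluster was named when 3 or more of its markers, the leading one included, were 1.5-fold over the other nuclei of its side on 3 UMIs each. Clusters that met 2 names or carried markers of glia stayed unnamed, as did 1 cluster called dopaminergic without Th, and these last clauses were added after the clusters had been seen. UMIs were summed per group in Python 3.11.15, and ratios called at 2-fold with at least 10 UMIs in both groups together. Levels have exact Poisson, shares exact binomial and ratios conditional exact intervals (scipy 1.17.1). Of these steps, only the calling of ratios was tested on simulated data, which held counting error alone. The hashtag calls, clustering, naming and thinning were not tested in this way. How the calls behave at the low counts of Htr1a, Htr1b, Htr1d, Htr2a and Htr5a was not tested. The named genes were the 9 receptors, 5 other serotonin receptor genes, 8 genes of serotonin supply, 34 of signalling and the 3 genes most like each receptor with at least 200 UMIs. Positions come from GENCODE M21 (GRCm38), which held 32158 of the 32285 gene identifiers. The receptors and lists were chosen with earlier results of these data known. Alternatives changed the filters, hashtag calls, depth, clustering, class definition and thresholds.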

Additional observations from a re-analysis of the deposited data

Results flagged for a closer look

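The 2385 nuclei that passed the filters but had no hashtag call enter no comparison, and each receptor had more than the 3 UMIs that a count of 0 allows there (0.327 CPM). In these nuclei Htr2c was at 299 CPM (288 to 310), Htr1f at 55.2 CPM, Htr7 at 49.1 CPM, Htr4 at 45.0 CPM, Htr1b at 7.73 CPM, Htr2a at 7.08 CPM, Htr1d at 3.38 CPM, Htr5a at 2.07 CPM and Htr1a at 0.545 CPM on 5 UMIs. The Htr2c level lay between the 123 CPM of ARC neurons and the 324 CPM of PVH neurons, and nearer to the latter. The median depth of these nuclei was 3926 UMIs, and which region they came from was not tested.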

How the results depend on the processing

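Counts of receptors past the fold were the same or within 1.5 times in 120 of 132 repeats, and 457 of 514 single log2 ratios stayed within their counting interval. Removing the minimum of UMIs cannot move a ratio, yet its repeats are counted among those that stayed. The share therefore makes the ratios look steadier than the remaining settings alone would. The ratio of Htr2c left its interval in 10 of 18 settings in AGRP-like neurons and in 10 of 18 in POMC-like against AGRP-like neurons, with its direction kept in each. With the classes set by UMIs of Agrp and Pomc, AGRP-like neurons had 0 receptors higher and 0 lower, POMC-like neurons 0 higher and 1 lower, and POMC-like against AGRP-like neurons 1 higher and 1 lower. Both transcripts were also counted outside their clusters, so classes set this way can hold other neurons. Under this setting Htr1d in AGRP-like neurons (log2 ratio 0.13), Htr1b in POMC-like neurons (0.17) and Htr2a in POMC-like against AGRP-like neurons (0.054) changed sign. Settings that left a receptor with 0 UMIs in a group gave no ratio. Thinning to 1000 UMIs left 1 receptor lower in POMC-like against AGRP-like neurons, as fewer had 10 UMIs, and gave 2 higher in PVH neurons. A positive quantile of 0.99, which kept 1229 ARC and 407 PVH neurons, gave 3 higher in PVH neurons and a log2 ratio of −0.45 for Htr1a in AGRP-like neurons. A fold of 1.5 gave 2 higher in POMC-like and 2 in PVH neurons, and leaving the AGRP-like, POMC-like and VMH-like clusters out of the ARC side gave 2 higher in PVH neurons. Where no cause is named, the cause was not tested. Over the settings the log2 ratio in AGRP-like neurons ran from 0.85 to 2.41 for Htr1f and from −2.76 to −0.36 for Htr2c, that of Htr4 in POMC-like neurons from 0.88 to 1.59, and that of Htr2c in PVH neurons from 1.16 to 1.67. Leaving out the ARC clusters with Sim1 or oligodendrocyte genes, an alternative chosen after seeing the data, moved no count beyond 1.5 times. The same alternative raised the log2 ratio of Htr2c from 0.29 to 0.61 in POMC-like and from 1.40 to 1.67 in PVH neurons, outside its counting intervals. No paired analysis was possible because there is 1 pooled library, and no replicate could be left out.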
